A study of Danio rerio with 16 samples.

Results

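Osteoblasts of the zebrafish fin carried many short stretches of DNA that were less methylated than in the other fin cells. In the libraries that chose them, some had a large difference in the uninjured fin but a small one in the 4-day regenerate. These stretches are described here. When only part of the libraries chose such stretches, the difference changed far less between the times in the libraries left out. Whether the stretches are low in osteoblasts of the uninjured fin only is therefore not decided. The genome was cut into tiles of 500 bp, and a tile was eligible when it held at least 4 CpGs and at least 20 calls (reads summed over CpGs) in each of the 8 libraries of sorted cells. A tile was selected when the level of sp7+ minus sp7- cells, from the summed reads of both replicates, was -25 percentage points (points) or lower at 0 days post-amputation (dpa), with both sp7+ libraries under both sp7- libraries, and above -15 points at 4 dpa. Of 1537960 eligible tiles, 1826 were selected. They lay on all 25 chromosomes.

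The study asked whether DNA methylation changes while the amputated caudal fin regrows, and read it by whole genome bisulfite sequencing (WGBS). All 16 libraries came from adult zebrafish of the Tg(sp7:EGFP) strain, with 2 libraries in each of 8 groups. The sorted groups were sp7+ cells, which carry EGFP, and sp7- cells, which lack it, at 4 dpa and at 0 dpa, the uninjured fin. For sorting, uninjured fins were dissociated with TrypLE and then Liberase DL, and the 4 dpa blastema with TrypLE alone. In sorted cells, time therefore cannot be told apart from the dissociation and the tissue taken. The whole fin groups were 0, 1, 2 and 4 dpa. The transgene marks cells that use the sp7 promoter, so the sp7- cells are a mixture of all fin cells without EGFP. By the authors' account sp7 does not mark every osteoblast of the regenerate, so the sp7- cells can include some. Regenerating whole fin is blastema together with wound epidermis, so time cannot be told apart from the tissue taken in whole fin either. Each library came from fins pooled for that replicate. The sorted libraries held 198736279 to 471925247 calls and the whole fin libraries 117991918 to 153260623. No gene annotation on GRCz10, the build of the files, was used here, so tiles are given by position, and the sorted populations could not be checked against osteoblast marker genes.

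DNA methylation in vertebrates sits mainly on the cytosine of CpG pairs. It is copied to the new strand at each cell division by the maintenance methyltransferase Dnmt1, set afresh by the Dnmt3 enzymes and removed through oxidation by the Tet enzymes. Most of the genome is highly methylated, and short stretches with low or middle levels away from promoters often lie over regulatory elements used by that cell type. The gene sp7 encodes Osterix, a transcription factor needed for osteoblasts to form. In the amputated zebrafish fin, mature osteoblasts near the stump lose part of their bone-forming character, divide, and give rise to the osteoblasts of the new rays.

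Because the rule picked the tiles by the levels in sorted cells, their differences between sorted groups are a description and carry no test. In the selected tiles the median level of sp7+ cells was 50.4% at 4 dpa, against 32.8% at 0 dpa. The median level of sp7- cells was 58.2% at 4 dpa, against 62.9% at 0 dpa. The median of sp7+ minus sp7- was accordingly -9.57 points at 4 dpa, against -28.5 points at 0 dpa. Tile by tile, sp7+ cells were higher at 4 dpa by a median of 17.1 points (quartiles 11.8 and 22.2), and the change of sp7- cells had a median of -4.54 points (quartiles -10.5 and 0.937). Over all eligible tiles these medians were -1.77 points in sp7+ and -1.44 points in sp7- cells. In a mixed sample, a changed share of cells and a changed methylation per cell cannot be told apart.

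With all libraries, most of the narrowing stood on the side of the sp7+ cells, a share that was lower when any 1 sp7- library was left out. The narrowing of a tile is the difference of 4 dpa minus that of 0 dpa, and its median was 20.5 points. A tile was called an sp7+ gain tile when at least 66.7% of its narrowing came from a higher sp7+ level, an sp7- loss tile when at most 33.3% did, and a mixed tile otherwise. There were 1175 sp7+ gain tiles (64.3%), 455 mixed tiles (24.9%) and 196 sp7- loss tiles (10.7%). Without sp7- replicate 1 of 0 dpa the limits chose 3904 tiles, of which 35.4% were sp7+ gain tiles, with median changes of 12.5 points in sp7+ and -11.3 points in sp7- cells. Without sp7- replicate 2 of 0 dpa they were 47.1% of 3033 tiles. Without sp7- replicate 1 or 2 of 4 dpa they were 51.8% of 1765 or 57.8% of 2270 tiles. Leaving out an sp7+ library instead gave shares of 66.6% to 72.1%. All of these shares rest on the libraries that chose the tiles. In sp7+ gain tiles the median change was 20.1 points in sp7+ and -0.774 points in sp7- cells. Mixed tiles had 12.5 points in sp7+ and -11.2 points in sp7- cells, and sp7- loss tiles 2.94 points in sp7+ and -18.5 points in sp7- cells. In 1239 tiles (67.9%) sp7+ cells were higher and sp7- cells lower at 4 dpa, in 528 (28.9%) both were higher, and in 56 sp7+ cells were lower.

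**Figure D1:**
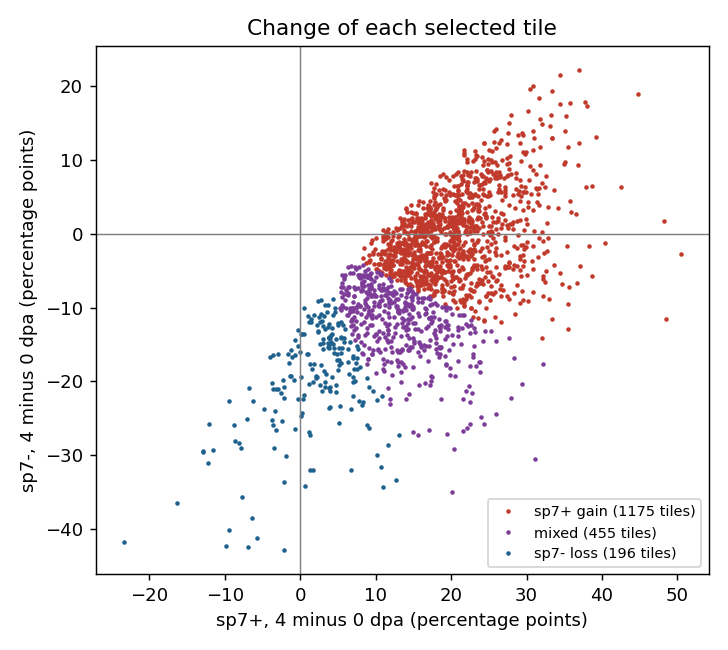
Change in sp7- cells (vertical axis) against change in sp7+ cells (horizontal axis), each as the level at 4 dpa minus that at 0 dpa in percentage points, with 1 point for each of the 1826 selected tiles. The 1175 sp7+ gain tiles lie to the right, the 196 sp7- loss tiles low on the left, and the empty upper left side follows from the rule, under which every tile narrowed by more than 10 points.

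The rule let any difference above -15 points remain at 4 dpa. In 1379 tiles (75.5%) the difference at 4 dpa lay between that limit and -5 points, and sp7+ cells were the higher ones in 203 (11.1%). Both sp7+ libraries were still under both sp7- libraries at 4 dpa in 955 tiles (52.3%), where 18.6% of all eligible tiles showed this. They were above them in 50 tiles, against 20% of all eligible tiles. Across time, both sp7+ libraries of 4 dpa were above both of 0 dpa in 1483 selected tiles (81.2%, all eligible tiles 9.76%) and below them in 16 (all eligible tiles 34.2%). Both sp7- libraries of 4 dpa were below both of 0 dpa in 636 (34.8%, all eligible tiles 28.8%) and above them in 118 (6.46%, all eligible tiles 10.7%). Both moves together, sp7+ libraries above and sp7- libraries below, occurred in 409 tiles (22.4%, all eligible tiles 1.63%). The rule used these levels, so nothing is read from these shares.

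A sharper view of how far the pattern holds came from letting the libraries of replicate number 1 choose tiles by the same limits and reading them in the libraries of replicate number 2, and the reverse. This check was added after the data were seen. Choice on replicate 1 gave 4951 tiles with 20 calls in every sorted library. In replicate 1, which chose them, the median of sp7+ minus sp7- was -5.61 points at 4 dpa, against -29.0 points at 0 dpa. In replicate 2, which had no part in the choice, it was -11.6 points at 4 dpa, against -12.2 points at 0 dpa. The 6051 tiles chosen on replicate 2 had -3.90 points at 4 dpa, against -28.8 points at 0 dpa in that replicate, and in replicate 1 they had -6.91 points at 4 dpa, against -8.21 points at 0 dpa. The lower level of sp7+ cells at 0 dpa thus repeated in part, in 79.0% and 72.9% of the tiles. The difference was narrower at 4 dpa in only 51.7% and 56.6% of them. Over all eligible tiles, with both replicates summed, sp7+ cells were the higher ones at 0 dpa in 55.2%. The median of the difference at 4 dpa minus that at 0 dpa was -0.285 points there. Shares over all eligible tiles were not counted in single replicates.

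The higher sp7+ level at 4 dpa was seen again in the replicates not used, at a smaller size. The median sp7+ change was 5.88 points in replicate 2 and 3.04 points in replicate 1, where the replicates that chose the tiles showed 18.2 and 17.3 points. The lower sp7- level was not seen again, with median changes of 4.35 points in replicate 2 and 0.964 points in replicate 1. Among tiles with at least 100 calls in every sorted library, 409 chosen on replicate 1 had -17.3 points at 4 dpa, against -18.9 points at 0 dpa in replicate 2, with 53.5% of them narrower at 4 dpa. The 316 chosen on replicate 2 had -13.2 points at 4 dpa, against -18.3 points at 0 dpa in replicate 1, with 74.1% of them narrower at 4 dpa. A choice on 1 library per group admits more tiles than the rule with both, so these values do not carry over in size to the 1826 tiles. Of the tiles chosen on replicate 1, 7.86% met both limits in replicate 2, and of those chosen on replicate 2, 6.43% did in replicate 1. The check therefore cannot decide whether the 1826 tiles are low in sp7+ cells at 0 dpa only. For that reason the 1826 tiles are called the selected tiles below.

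**Figure D2:**
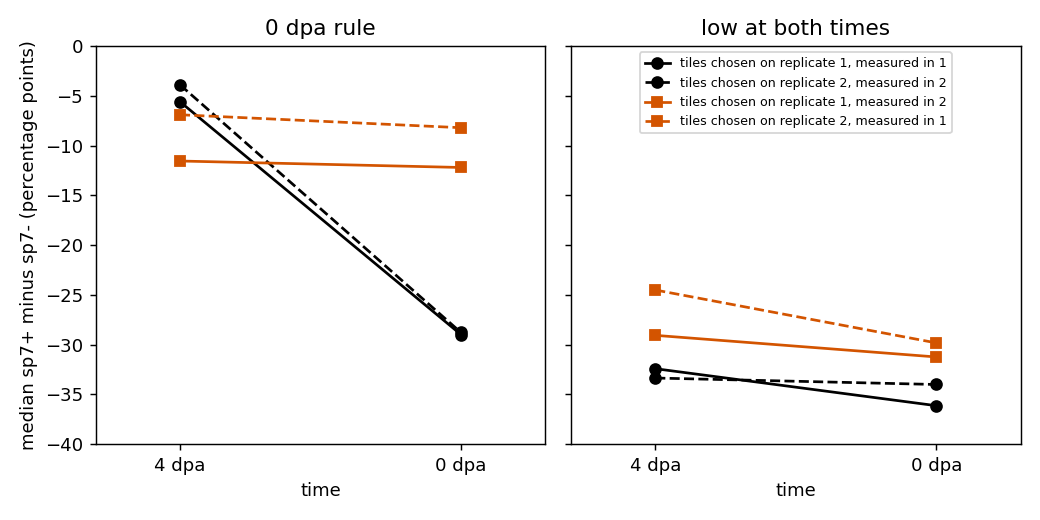
Median of sp7+ minus sp7- in percentage points (vertical axis) at 4 dpa and at 0 dpa, for tiles chosen by the limits of the 0 dpa rule (left) or low at both times (right) on the libraries of 1 replicate number. Black circles stand for the replicate that chose the tiles and orange squares for the other replicate, where the left panel is nearly flat at -11.6 and -12.2 points and at -6.91 and -8.21 points.

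Tiles that were -25 points or lower with separate libraries at both times kept a large difference at both times under the same check. In the replicate not used, the median for choice on replicate 1 was -29.1 points at 4 dpa, against -31.2 points at 0 dpa, and for choice on replicate 2 it was -24.5 points at 4 dpa, against -29.8 points at 0 dpa. In that replicate the difference was narrower at 4 dpa in 55.8% and 66.1% of them, against 51.7% and 56.6% of tiles chosen by the 0 dpa rule. With both replicates there were 3110 of these tiles low at both times. In them the median level of sp7+ cells was 35.5% at 4 dpa, against 22.6% at 0 dpa, and that of sp7- cells 70.4% at 4 dpa, against 61.2% at 0 dpa. A higher sp7+ level at 4 dpa was therefore no mark of the selected tiles, since the tiles low at both times also had it, with a median of 11.6 points. The sets differed in the sp7- cells, which were higher at 4 dpa in 81.1% of the tiles low at both times and in 28.9% of the selected tiles. The rule itself used these levels, so this contrast carries no test.

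Leaving out 1 library at a time gave a like picture. Without 1 of the 4 libraries of 0 dpa the limits admitted 4309 tiles (without sp7+ replicate 1), 3634 (without sp7+ replicate 2), 3904 (without sp7- replicate 1) or 3033 (without sp7- replicate 2). The median change of sp7- cells was -11.3 points without sp7- replicate 1 of 0 dpa and -8.12 points without its replicate 2. Without sp7- replicate 1 or 2 of 4 dpa it was -7.39 or -6.06 points. These medians rest on the libraries that chose the tiles. With the left-out sp7- library of 0 dpa read instead, they were 1.45 (replicate 1) and 1.74 points (replicate 2). With that of 4 dpa they were -2.94 (replicate 1) and 1.88 points (replicate 2). The sp7+ library of 0 dpa that was left out lay at a median of -14.6 points (replicate 1) or -17.0 points (replicate 2) from the sp7- cells, against -28.5 and -28.6 points for the other replicate. At 4 dpa the left-out sp7+ library lay at -12.8 points (replicate 1) or -11.5 points (replicate 2), against -8.65 and -9.46 points. With the left-out sp7+ library of 0 dpa read, the median sp7+ change was 4.28 (replicate 1) and 6.06 points (replicate 2). The other replicate, which chose the tiles, gave 19.9 and 19.8 points. With the left-out sp7+ library of 4 dpa read, the change was 14.0 and 14.8 points, against 20.1 and 17.5 points.

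Read depth moved with these values. The lowest number of calls in a sorted library had a median of 37 in selected tiles, 51 in tiles low at both times and 75 in all eligible tiles. Of 10000 eligible tiles, 34.2 were selected where that number was 20 to 29 and 0.920 where it was 200 or more. Of the 7568 tiles that met the 0 dpa limit, whatever their difference at 4 dpa, the selected ones made up 35.6% at 20 to 29 calls and 8.04% at 200 or more. The share of sp7+ gain tiles was 55.9% in the shallowest class and 94.4% in the deepest, which held only 18 selected tiles. At 100 to 199 calls, with 130 tiles, it was 76.2%, and the median change was 15.7 points in sp7+ and -1.02 points in sp7- cells. The median change of sp7- cells was -6.50 points in the shallowest and -0.866 points in the deepest class, while that of sp7+ cells was 17.4 and 19.5 points. The part of counting error in the selection was not tested beyond these values.

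A fit across all eligible tiles, with 1 mean per sorted group and variances shrunk by limma, gives the same tiles against the spread between replicates. For sp7+ against sp7- at 0 dpa, the contrast that chose them, 844 of the 1826 selected tiles were lower by over 25 points with a p under 0.05 after Benjamini-Hochberg adjustment (46.2%, all eligible tiles 0.32%), from which nothing further is read. The interaction of cell type and time was called in 0 of the 1537960 eligible tiles by this fit, with a smallest adjusted p of 0.999969. At an unadjusted p under 0.05 the difference was narrower in 1172 selected tiles (64.2%, all eligible tiles 2.14%), a share that the rule had a part in. For time within sp7+ cells 0 tiles were called (0% of all eligible tiles), with 1268 selected tiles higher (all eligible tiles 2.1%) and 1 lower (8.4%) at an unadjusted p under 0.05, counts that the rule itself had a part in and from which nothing is read. For time within sp7- cells 2 selected tiles were lower at 4 dpa (all eligible tiles 0.0194%).

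Whole fin was not used by the rule. It cannot give the difference of sp7+ minus sp7- cells, and its change with time cannot be told apart from a change of tissue. Of the selected tiles, 1601 had at least 10 calls in each of the 8 whole fin libraries. In uninjured fin they averaged 56.5% ± 0.815 and in the regenerate 57.5% ± 0.439 (1 dpa), 59.7% ± 1.24 (2 dpa) and 59.0% ± 0.705 (4 dpa), each with the SD of n = 2 libraries. The 2 libraries of 4 dpa had 59.5% and 58.5% and those of 0 dpa 57.1% and 55.9%, so the groups did not overlap. Over all 1448434 tiles with such calls they did not overlap either, with 76.1% and 76.2% at 4 dpa, against 77.4% and 76.9% at 0 dpa. Tiles low at both times had 64.0% and 63.2% at 4 dpa, against 58.5% and 57.7% at 0 dpa. In tile-wise terms the median of the selected tiles was 2.12 points higher at 4 dpa than at 0 dpa, with 959 tiles (59.9%) above 0. It was -0.918 points over the 1448434 tiles tested and -0.244 points over the 220276 of these with a mean sorted level of 30 to 70%.

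In whole fin the median changes of the sp7+ gain and sp7- loss tiles had opposite signs, although the classes were set on sorted cells. The difference between the classes was not tested. The 1045 sp7+ gain tiles averaged 60.8% ± 0.875 at 4 dpa and 56.4% ± 0.835 at 0 dpa. The 169 sp7- loss tiles averaged 51.6% ± 0.788 at 4 dpa and 56.9% ± 1.57 at 0 dpa, and the 387 mixed tiles 57.2% at 4 dpa and 56.7% at 0 dpa. In neither of the gain and loss classes did the libraries of 4 and 0 dpa overlap, which was also so over all tiles tested. The median change of single tiles was 3.57 points in sp7+ gain tiles, 0.358 points in mixed tiles and -4.96 points in sp7- loss tiles. The tiles low at both times had 5.45 points. With 2 libraries a group no exact test could fall below 0.333, so none is given for these means.

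**Figure D3:**
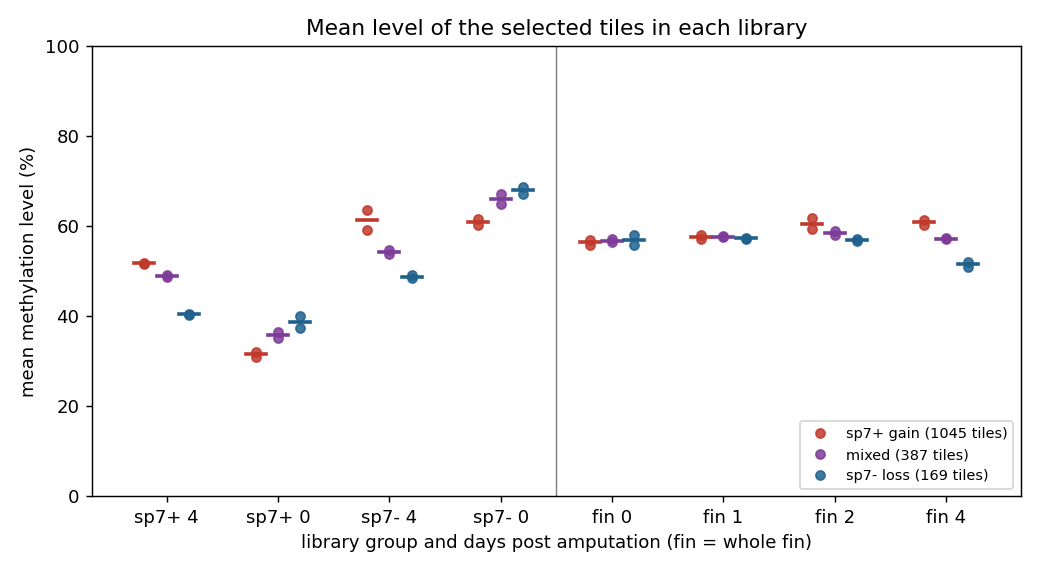
Mean methylation level in percent (vertical axis) of the selected tiles with at least 10 calls in every whole fin library, by class, in each of the 16 libraries. Points are libraries, bars the mean of 2, and the numbers after the group names are days post-amputation. The sp7+ gain tiles stand at 51.7% in sp7+ cells of 4 dpa against 31.5% at 0 dpa, and in whole fin sp7+ gain and sp7- loss tiles lie at 60.6% and 56.9% at 2 dpa and at 60.8% and 51.6% at 4 dpa.

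Tile by tile, these shifts in whole fin did not pass the test. In the limma fit over 1448434 tiles, 0 tiles were called at 1, 2 or 4 dpa against 0 dpa, neither among the selected tiles nor among the rest (0% for each). At an unadjusted p under 0.05, 107 of the 1601 selected tiles were higher (all tiles 5.99%) and 74 lower (all tiles 1.55%) at 1 dpa. At 2 dpa 157 were higher (all tiles 4.08%) and 50 lower (all tiles 2.43%). As shares of the 1601, these counts lay above those of all tiles in both directions. At 4 dpa, 142 selected tiles were higher (8.87%, all tiles 2.17%) and 70 lower (4.37%, all tiles 4.48%). Both libraries of 4 dpa were above both of 0 dpa in 384 selected tiles (24.0%, all tiles 13%) and below them in 211 (13.2%, all tiles 22.1%). In sp7+ gain tiles these shares were 28.3% above and 8.13% below, and in sp7- loss tiles 10.7% above and 31.4% below. In the tiles with a mean sorted level of 30 to 70% they were 17.4% and 19.0%.

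At the earlier days the classes lay closer together, though apart at 2 dpa. At 1 dpa the median change from 0 dpa was 1.31 points in the selected tiles, close to the 1.44 points of all tiles and below the 4.38 points of tiles with a mean sorted level of 30 to 70%. Once the median shift of each library was taken off, it was -0.125 points at 1 dpa. At 2 dpa it was 3.24 points in the selected tiles, with 4.42 points in sp7+ gain tiles, 1.59 in mixed tiles and -0.721 in sp7- loss tiles, where all tiles had 0.476 points. Both libraries of 2 dpa were above both of 0 dpa in 452 selected tiles (28.2%, all tiles 19.9%) and below them in 182 (11.4%, all tiles 14.8%). At 1 dpa, 333 selected tiles (20.8%, all tiles 25.9%) had both libraries above and 231 (14.4%, all tiles 11.3%) both below.

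**Figure D4:**
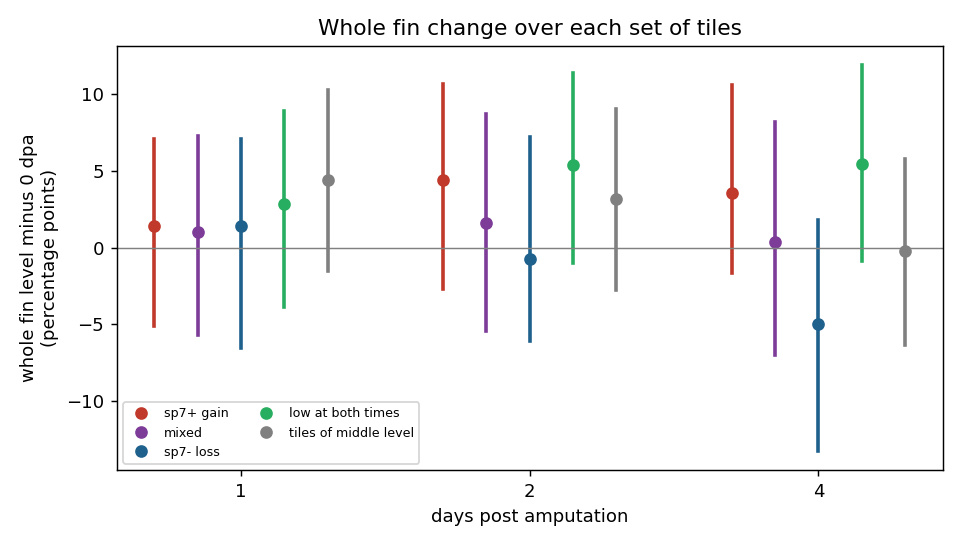
Whole fin level at 1, 2 and 4 dpa minus that at 0 dpa in percentage points (vertical axis), as the median (point) and the quartiles (bar) over tiles, for the classes of selected tiles, the tiles low at both times and all tiles with a mean sorted level of 30 to 70% (middle level). The classes have like medians at 1 dpa, between 1.02 and 1.41 points, and stand at 3.57, 0.358 and -4.96 points at 4 dpa.

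Across the 1601 tiles, the whole fin change from 0 to 4 dpa had a Pearson r of 0.253 (Spearman rho 0.236) with the sp7+ change and of 0.294 (rho 0.260) with the sp7- change, given as a description over tiles that share the same libraries. Over the 220276 tiles with a mean sorted level of 30 to 70%, r was 0.227 with the sp7+ and 0.245 with the sp7- change, close to these values. In the selected tiles the whole fin change at 1 dpa had an r of -0.0175 with the sp7+ and 0.00789 with the sp7- change. Deeper tiles kept the split. Among tiles with at least 60 calls in every sorted library, the median whole fin change at 4 dpa was 3.80 points in 335 sp7+ gain tiles and -5.18 points in 38 sp7- loss tiles, of which 6 were above 0.

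Single tiles show what these medians are made of. They were taken by a fixed rule, the 3 of largest narrowing in each class among tiles with at least 60 calls in every sorted and 10 in every whole fin library, with separate libraries of 4 and 0 dpa in the cell type that names the class. Those conditions left 326 sp7+ gain, 49 mixed and 38 sp7- loss tiles. Positions are those of the files.

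The sp7+ gain tile of largest narrowing, 39.8 points, lay on chromosome 19 at 10991000 to 10991499 and held 8 CpGs. Its level in sp7+ cells was 56.8% and 57.5% at 4 dpa, against 20.6% and 25.8% at 0 dpa, on 62 to 176 calls per sorted library. Its level in sp7- cells was 69.8% and 69.1% at 4 dpa, against 70.3% and 80.7% at 0 dpa. The sp7+ libraries of 4 and 0 dpa were thus far apart, while an sp7- library of 0 dpa stood beside those of 4 dpa. The Wilson 95% intervals of the sp7+ libraries were 49.4 to 63.9% and 46.1 to 68.2% at 4 dpa, against 13.9 to 29.4% and 16.6 to 37.9% at 0 dpa. They take each call as separate, although 1 read can give calls at several CpGs, and are therefore too narrow. The tile was also picked for separate sp7+ libraries, so nothing is read from the lack of overlap. In all 8 CpGs sp7+ cells were lower than sp7- cells at 0 dpa, and in 7 of them they were higher at 4 than at 0 dpa. The whole fin groups overlapped, with 76.8% and 64.1% before injury, then 73.4% and 82.1% (1 dpa), 64.4% and 75.5% (2 dpa) and 67.1% and 72.7% (4 dpa).

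The tile beside it, at 10990500 to 10990999, was also selected, so that both form a block. It had 54.5% and 30.8% in sp7+ cells at 4 dpa, against 26.3% and 29.6% at 0 dpa, and 57.9% and 62.5% in sp7- cells at 4 dpa, against 73.7% and 84.1% at 0 dpa. Here 1 sp7+ library of 4 dpa stood with those of 0 dpa.

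The next sp7+ gain tile, on chromosome 4 at 56601000 to 56601499, had 58.1% and 64.3% in sp7+ cells at 4 dpa, against 28.8% and 37.5% at 0 dpa. Its sp7- cells had 76.5% and 60.6% at 4 dpa, against 78.3% and 75.8% at 0 dpa, and its 7 CpGs were all lower in sp7+ than in sp7- cells at both times. The other one, on chromosome 8 at 12254000 to 12254499, had 60.6% and 81.1% in sp7+ cells at 4 dpa, against 40.8% and 29.5% at 0 dpa, beside sp7- levels of 60.3% and 76.5% at 4 dpa, against 69.4% and 73.4% at 0 dpa. In whole fin these tiles differed by 0.760 and 2.12 points at 4 against 0 dpa, less than the spread between replicates.

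The mixed tiles were led by chromosome 23 at 24143500 to 24143999, with 10 CpGs and a narrowing of 36.4 points. Its sp7+ cells had 45.3% and 37.1% at 4 dpa, against 28.8% and 28.1% at 0 dpa, and its sp7- cells 41.4% and 52.8% at 4 dpa, against 67.9% and 72.7% at 0 dpa. All 10 CpGs had a higher sp7+ level and a lower sp7- level at 4 dpa than at 0 dpa. Whole fin had 54.2% and 62.5% at 4 dpa and 54.9% and 54.5% at 0 dpa, a difference of 2.81 points with overlapping groups.

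A mixed tile on chromosome 5 at 37523000 to 37523499, with 15 CpGs, had 50.3% and 42.1% in sp7+ cells at 4 dpa, against 34.6% and 28.4% at 0 dpa. Its sp7- cells had 62.9% and 43.0% at 4 dpa, against 72.1% and 72.6% at 0 dpa, so the sp7- libraries of 4 dpa stood far apart. The mixed tile on chromosome 16 at 43462500 to 43462999 had 44.9% and 51.1% in sp7+ cells at 4 dpa, against 31.4% and 9.84% at 0 dpa, and 40.7% and 43.7% in sp7- cells at 4 dpa, against 58.6% and 48.5% at 0 dpa. In that tile both sp7+ libraries stood above both sp7- libraries at 4 dpa. In whole fin the tiles on chromosomes 5 and 16 differed by -1.91 and -5.04 points at 4 against 0 dpa, with overlapping groups.

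Of the sp7- loss tiles, the one on chromosome 11 at 24774500 to 24774999, with 9 CpGs, had the largest whole fin difference of the tiles named so far. Its sp7+ cells had 41.7% and 33.9% at 4 dpa, against 38.4% and 45.6% at 0 dpa, and its sp7- cells 42.1% and 39.3% at 4 dpa, against 71.6% and 69.7% at 0 dpa. Whole fin stayed between 59.4% and 78.4% in the 6 libraries of 0, 1 and 2 dpa and had 44.4% and 55.4% at 4 dpa. The whole fin difference of 4 minus 0 dpa was -17.2 points, with an unadjusted p of 0.0205 and an adjusted p of 0.698 in the limma fit. All 9 CpGs were lower in sp7- cells at 4 than at 0 dpa.

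The sp7- loss tile of largest narrowing, 28.5 points, lay on chromosome 11 at 29513000 to 29513499. Its sp7+ cells had 41.2% and 41.4% at 4 dpa, against 42.9% and 33.8% at 0 dpa, while its sp7- cells had 39.4% and 45.8% at 4 dpa, against 68.4% and 71.4% at 0 dpa. Its whole fin libraries were scattered, with 30.8% and 70.3% at 2 dpa alone. The tile on chromosome 10 at 1077500 to 1077999 had 37.0% and 48.4% in sp7+ cells at 4 dpa, against 40.8% and 20.7% at 0 dpa, and 57.6% and 52.2% in sp7- cells at 4 dpa, against 74.4% and 77.7% at 0 dpa. Its difference at 4 dpa, -14.5 points, kept all 8 CpGs lower in sp7+ cells. Whole fin had 66.7% and 65.8% at 4 dpa and 55.2% and 70.8% at 0 dpa in this tile, a difference of 1.09 points with overlapping groups.

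Selected tiles mostly stood alone. When tiles at most 1 tile apart were joined, 1775 (97.2%) were single, 24 blocks held 2 tiles and 1 block held 3. That block, on chromosome 8 from 3024000 to 3025499, had 33.6% and 23.1%, 34.9% and 35.6%, and 44.7% and 44.4% in sp7+ cells of 4 dpa in its successive tiles. At 0 dpa its sp7+ cells had 22.7% and 14.6%, 18.3% and 22.2%, and 17.8% and 22.0%, a low level throughout. The middle tile had 23.1% and 23.3% in sp7- cells at 4 dpa, against 46.6% and 58.1% at 0 dpa.

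The tiles around the selected ones had small mean differences. The rule set the difference of the selected tiles themselves, and neighbours that it chose were left out. The drop beside the selected tiles is therefore not read as a result. Tiles directly before and after were read where they were eligible and not themselves selected, which left 992 and 1069. Their mean of sp7+ minus sp7- was -3.89 and -4.22 points at 4 dpa, against -4.71 and -5.99 points at 0 dpa. The medians were smaller, -1.48 and -2.08 points at 4 dpa, against -1.77 and -3.00 points at 0 dpa. At 1000 bp the means were -1.13 and -1.06 points at 4 dpa, against -1.37 and -1.23 points at 0 dpa. The direct neighbours of tiles low at both times, read in the same way, had means of -5.40 and -5.84 points at 4 dpa, against -6.85 and -7.10 points at 0 dpa. The flanks of the selected tiles were highly methylated, at 73.9% to 77.4% in all sorted groups at 1000 bp.

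**Figure D5:**
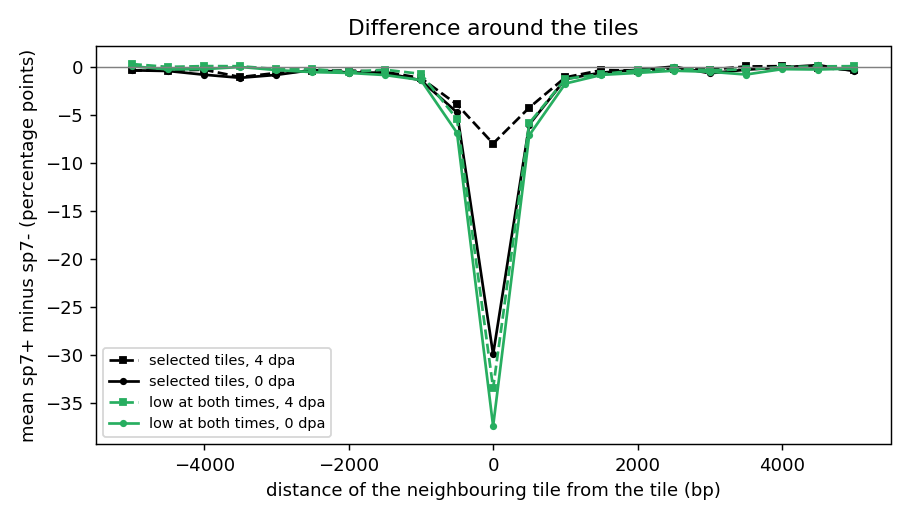
Mean of sp7+ minus sp7- in percentage points (vertical axis) in the tiles up to 5000 bp around the selected tiles (black) and the tiles low at both times (green), at 4 dpa (dashed) and 0 dpa (solid), leaving out neighbours that the same limits chose. At 500 bp the flanks of the selected tiles have -3.89 and -4.22 points at 4 dpa, against -4.71 and -5.99 points at 0 dpa, and at 1000 bp every mean lies between -1.70 and -0.692 points.

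The selected tiles were poor in CpGs. They held a median of 7 CpGs (1.4 per 100 bp), against 8 in tiles low at both times and 10 (2.0 per 100 bp) in all eligible tiles. A share of 41.5% had at most 6 CpGs, against 20.6% of all eligible tiles, and only 21 (1.15%) had 20 or more, against 11.2%. Per 10000 eligible tiles there were 24.2 selected tiles at 4 CpGs, 7.61 at 10 to 14 and 0.991 at 30 or more. Tiles with a mean sorted level of 30 to 70% also had few CpGs, with a median of 8 and 33.6% at 6 or fewer, and CpG number moves with the number of calls, so the part of each was not tested.

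By chromosome there were, per 10000 eligible tiles, from 8.69 on chromosome 2 to 15.1 on chromosome 7. The outer 1 Mb of chromosomes held 3.23% of them, against 4.17% of all eligible tiles, and chromosome 4 beyond 30 Mb held 0.986%, against 1.62%. A tile with a level under 10% lay directly beside 1.81% of them (all eligible tiles 3.12%) and within 2000 bp of 8.60% (all eligible tiles 6.92%). A tile low at both times was the direct neighbour of 51 (2.79%), against 0.235% of all eligible tiles, and another selected tile that of 49 (2.68%), against 0.137%. The tiles low at both times had such neighbours in 12.4% and 1.64%. Another 2632 tiles met the 0 dpa limit but fell in neither set, and they had them in 6.76% and 2.39%. None had a coverage above 3 times the median, where 0.553% of all eligible tiles did.

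Near the limits the values were these. The selected tiles nearest to the limit of 0 dpa, on chromosome 6 at 835000 and on chromosome 23 at 33326500, had -25 points, and the nearest tiles left out, on chromosome 7 at 7619500 and on chromosome 5 at 30146000, had -24.995 and -24.994 points. At the limit of 4 dpa the selected tile nearest to it, on chromosome 15 at 2688000, had -14.99 points, that on chromosome 3 at 42944000 had -14.98 points, and the nearest tiles left out, on chromosome 23 at 4065500 and on chromosome 6 at 3248500, had -15.001 and -15.005 points.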

How the data were processed

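The deposited files held counts for each CpG, the calls and the methylated calls, both strands joined by the authors and not normalized. Per the labels and methods, the authors mapped reads, cleaned by Trim Galore 0.4.1, to GRCz10 carrying variants of the strain by Bismark 0.16.1 with Bowtie2, and took out duplicates. Whether positions start at 0 or 1 was not settled. Reads carried no molecular identifiers and 1 read can give several calls, so intervals cover counting error of single calls only.

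CpGs were summed in tiles of 500 bp. Levels are methylated calls over calls. Tile levels, as the arcsine of the square root of (methylated calls + 0.5) over (calls + 1), were fitted across all tiles with weights for calls and 1 mean per group. Variances were shrunk by limma 3.58.1 (R 4.3.3), with the rest in Python 3.11.15. Tiles were called at an adjusted p under 0.05 and a difference over 25 points. The fit was tried on simulated whole fin counts of 1 chromosome, with large losses at 4 dpa put into highly methylated tiles. The sorted fit, the interaction and smaller changes were not simulated. Named tiles were the 3 of largest narrowing per class, the 2 largest blocks and those at the limits. Alternatives changed the limits, tiles, calls, weights, scale and libraries. The tiles and lists were chosen with earlier results of these data known.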

Additional observations from a re-analysis of the deposited data

Results flagged for a closer look

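In 409 of the 1826 selected tiles (22.4%) both sp7+ libraries of 4 dpa were above those of 0 dpa and both sp7- libraries of 4 dpa were below those of 0 dpa, so that the cell types moved in opposite directions (all eligible tiles 1.63%). The rule favours such tiles, and the interaction of cell type and time was called in 0 tiles. Both moves also occurred in a named tile left out at the limit of 4 dpa, on chromosome 23 at 4065500. Among the named tiles that were selected, both moves occurred in 8. They lay on chromosome 8 at 3024500 and 3025000, with a narrowing of 41.8 and 36.0 points, chromosome 19 at 10991000 and 10990500, with 39.8 and 38.0 points, and chromosomes 23 at 24143500, 5 at 37523000, 16 at 43462500 and 15 at 2688000, with 36.4, 36.2, 34.8 and 17.8 points. Some of these separations were narrow. At 10991000 an sp7- library of 4 dpa had 69.8% and one of 0 dpa 70.3%. In sp7+ cells a library of 4 dpa had 30.8% and one of 0 dpa 29.6% at 10990500. On chromosome 15 such sp7+ libraries had 71.0% and 70.2%. Both tiles on chromosome 8 and the one at 10990500 had 21 to 31 calls in their shallowest sorted library. The difference between the cell types' changes was not called in any of the 8 tiles, with an adjusted p of 0.999969 each in the limma fit.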

How the results depend on the processing

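The set depended on its limits. With 10 calls it held 3256 tiles, with a median sp7- change of -6.47 points and 56.6% sp7+ gain tiles. With 40 calls it held 841 tiles, 70.9% sp7+ gain and a median of 8 CpGs. With 100 calls, chosen after seeing the data, it held 148 tiles, with median changes of 16.1 points in sp7+ and -1.02 points in sp7- cells and 78.4% sp7+ gain tiles. With 8 CpGs it held 809 tiles, 67.1% sp7+ gain and a median of 10 CpGs. A limit of -30 points at 0 dpa gave 680 tiles, 19.4 points in sp7+ cells and 61.9%. A limit of -10 points at 4 dpa gave 965 tiles, 18.4 and -7.35 points and 56.3%. Tiles of 1000 bp gave 912 tiles, 15.9 points and 11 CpGs, and tiles shifted by 250 bp 62.0% sp7+ gain. Removing the library shift gave 18.4 points and 70.3%. Leaving out 1 sorted library gave 1765 to 4309 tiles and 35.4% to 72.1% sp7+ gain tiles. In the libraries kept, which chose the tiles, median changes were 12.5 to 20.1 points in sp7+ and -11.3 to -3.36 points in sp7- cells. Tiles chosen on 1 replicate number and measured in the other had sp7+ changes of 5.88 and 3.04 points and sp7- changes of 4.35 and 0.964 points, which turned the sp7- direction round. The mean of both library levels changed none of these results.

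In whole fin the median at 1 dpa was -0.125 points once library shifts were removed. The sp7- loss tiles had -3.71 points at 4 dpa with 5 calls and -6.08 to -4.84 points without 1 library. No alternative called a selected tile in whole fin. In sorted cells, 360 selected tiles were called at 0 dpa with equal weights and 183 on the logit scale, and 0 for time in sp7- cells with either. Replicate numbers are shared between groups, but the replicate differences correlated by 0.0586 to 0.117 in sorted cells and -0.00477 to 0.00189 in whole fin. By the paper's methods, both cell types were sorted from the fins collected for a replicate, so sorted libraries of 1 time may be paired. The main sorted fit did not use such a pairing. Between sp7+ and sp7- cells the correlation was 0.117 at 0 dpa and 0.0691 at 4 dpa. With the replicate number as a block, 981 selected tiles were called at 0 dpa, 0 for the interaction and 0 in whole fin. The contrast at 0 dpa chose the tiles, and the shares over all eligible tiles were not counted in these settings. Nothing is read from the counts at 0 dpa. With 2 libraries a group and a median of 37 calls in the shallowest sorted library, depth limits the reading of any single tile.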
